A study of Rattus norvegicus with 36 samples.

Results

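The mitochondrial genome encodes a small part of the respiratory chain, and 10 of its messenger RNAs are described here in the nucleus accumbens of rats. They are mt-Nd1 (ENSRNOG00000030644), mt-Nd2 (ENSRNOG00000031033), mt-Nd3 (ENSRNOG00000033615), mt-Nd4 (ENSRNOG00000029707) and mt-Nd5 (ENSRNOG00000029971) of complex I, mt-Cytb (ENSRNOG00000031766) of complex III, mt-Co1 (ENSRNOG00000034234), mt-Co2 (ENSRNOG00000030371) and mt-Co3 (ENSRNOG00000030700) of complex IV, and mt-Atp6 (ENSRNOG00000031979) of complex V. The 10 were chosen by identifier from the protein-coding genes of the mitochondrial DNA, among 32402 gene identifiers in all. Mt-Nd4l, mt-Nd6 and mt-Atp8 are not in the set, so the shares below are those of the 10 alone. The rule itself uses no measured value. All 10 passed the filter on low counts, which left 15555 genes for testing. The deposited counts carry Ensembl identifiers alone, so the symbols come with the definition of the gene set and could not be checked against the counts.

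These mRNAs have a common origin. As background, the heavy strand of the circular mitochondrial DNA is transcribed as a long precursor that is cut into the single mRNAs, and each mRNA then has its own stability. The mRNAs carry poly(A) tails and are therefore retained when RNA is selected on oligo(dT). Mt-Nd1 to mt-Nd5 encode core subunits of complex I, which passes electrons from NADH to ubiquinone. Mt-Cytb encodes cytochrome b of complex III, mt-Co1 to mt-Co3 the catalytic core of cytochrome c oxidase, and mt-Atp6 a subunit of the proton channel of ATP synthase. Most other subunits of these assemblies are encoded in the nucleus and imported. Neurons depend on this chain for the ATP that restores ion gradients after firing.

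The rats were Sprague-Dawley, 8 weeks old, and had been trained in conditioned place preference, in which a compartment is paired with a drug. Saline rats were given 4 injections of serum, 15 days of withdrawal and 1 more injection of serum. CPPE rats (labelled dependent) and nCPPE rats (labelled non dependent) were given 4 injections of cocaine, 1 per day, the same withdrawal, and 1 injection of cocaine at 5 mg/kg before a test of 18 min, and they differed in whether the preference was expressed. Extinction over 12 days is also given for the series. Each group had 3 rats, sequenced as 4 technical replicates that were summed, so n counts rats. The sources used here give neither the sex of the animals nor the dose of the training injections. The tissue label is nucleus accumbens, while the extraction protocol also names the caudate putamen, and without gene names the tissue could not be checked against its markers.

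Total counts were 27724289 to 39067715 per rat, and Saline 2 stood apart from the other rats before any comparison. In Saline 2, 3027 of 15555 genes (19.5%) lay over 2-fold below the mean of the other 8 rats, beside 53 to 197 genes in each other rat. Results that rest on this rat are given with and without it. No gene lengths were at hand, so members are set side by side only as counts or shares of counts, which grow with the length of an mRNA and are not its level. Nuclear copies of mitochondrial DNA and reading frames that overlap a neighbour (mt-Atp6 and mt-Atp8, mt-Nd4 and mt-Nd4l) can share reads with a member, which makes its counts uncertain, and the part of this in the values was not tested.

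The 10 mRNAs together made up 10.7% to 16.9% of all counts. Their share was 15.8%, 10.7% and 14.9% in Saline 1, 2 and 3. It was 16.9%, 13.0% and 13.3% in the CPPE rats, and 15.6%, 14.1% and 14.3% in the nCPPE rats. The lowest share was that of Saline 2 and the highest that of CPPE 1, and the groups overlapped. Means were 13.8% ± 2.73 in Saline, 14.4% ± 2.14 in CPPE and 14.7% ± 0.816 in nCPPE rats (SD, n = 3 each), so that neighbouring groups lay closer than the spread within Saline or CPPE. Without Saline 2 the Saline mean was 15.3%, and Saline was then the highest group and not the lowest. In bulk tissue, fewer cells rich in mitochondria and less mitochondrial RNA per cell cannot be told apart. The share moved by 0.02 to 0.07 percentage points between technical replicates of a rat.

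**Figure D1:**
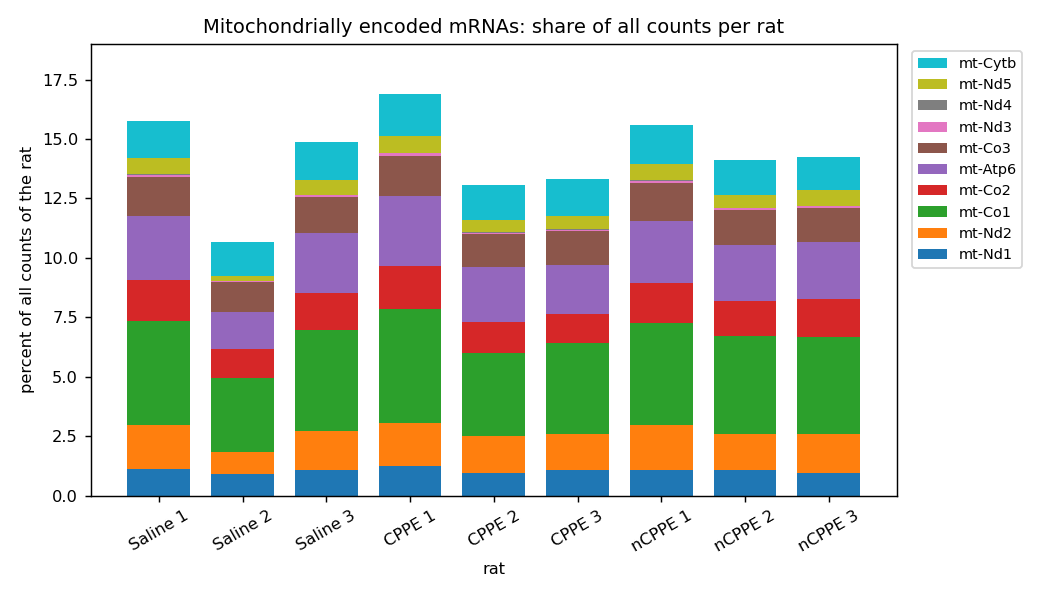
Share of all counts (%, vertical axis) taken by each of the 10 mitochondrially encoded mRNAs in each of 9 rats (horizontal axis); colours stack the members in their order on the heavy strand. The stacked total is lowest in Saline 2 (10.7%) and highest in CPPE 1 (16.9%), and the 3 groups overlap.

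By complex, the members of cytochrome c oxidase took the most counts, 6.87% ± 1.12 in Saline, 6.99% ± 1.14 in CPPE and 7.26% ± 0.273 in nCPPE rats (SD, n = 3 each, as for the following shares). The 5 members of complex I took 3.10% ± 0.892, 3.42% ± 0.434 and 3.43% ± 0.279 in the same order. Mt-Atp6, the sole member from ATP synthase, took 2.27% ± 0.637, 2.43% ± 0.461 and 2.46% ± 0.149. Mt-Cytb, the sole member from complex III, took 1.53% ± 0.0849, 1.58% ± 0.151 and 1.5% ± 0.117. For complexes I, IV and V the nCPPE mean was highest and the Saline mean lowest, and for mt-Cytb CPPE was highest and nCPPE lowest. In each complex, groups next to each other in this order lay within the SD of at least 1 of them. Saline 2 set the low Saline means, with 2.09% for complex I and 5.59% for complex IV beside 3.11% to 3.92% and 6.18% to 8.30% in the other 8 rats. Saline 1 and Saline 3 were at 3.76% and 3.46% for complex I, 7.71% and 7.29% for complex IV, and 2.72% and 2.54% for complex V. These values are all above the nCPPE means, so that without Saline 2 the Saline mean was the highest and not the lowest for these 3 complexes.

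In counts not scaled to length, members were the 7 identifiers with the most counts in every rat. Mt-Co1 had the most counts, mt-Atp6 came next, and mt-Nd1 was the last of the 7 in all 9 rats. Mt-Nd5 stood at rank 9 to 11 in 8 rats and at rank 30 in Saline 2. Mt-Nd3 stood at rank 63 to 199. Mt-Nd4 stood at rank 1210 to 2830 in 8 rats and at rank 5957 in Saline 2. The count of mt-Nd4, 843 in Saline 2 and 2341 to 4911 in the other rats, gave it the largest counting error of the members, 3.44% in Saline 2. Why mt-Nd4 had so few counts beside the other members was not tested, so its values may not stand for its mRNA.

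Among the complex I members, mt-Nd1 varied little. Levels are given as CPM, counts relative to a common library total after scaling by the trimmed mean of M values (TMM), in the order of rats 1, 2 and 3 of a group. Mt-Nd1 was at 11070, 9300 and 10840 CPM in Saline, 12830, 9574 and 10300 CPM in CPPE, and 10900, 10450 and 9604 CPM in nCPPE rats. Saline 2 was lowest and CPPE 1 highest, and the other 7 rats lay between 9574 and 11070 CPM. Mt-Nd2, a membrane subunit of the proton pumping arm, was at 18810, 9929 and 16490 CPM in Saline, 18710, 15400 and 14800 CPM in CPPE, and 18760, 14790 and 16050 CPM in nCPPE rats. The highest rats of the 3 groups were nearly level, and Saline 2 alone lay below 14790 CPM. Mean CPM of mt-Nd2 (± SD, n = 3 each) was 15070 ± 4604 in Saline, 16300 ± 2104 in CPPE and 16530 ± 2030 in nCPPE rats, all within an SD of each other.

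Mt-Nd5, which encodes another membrane subunit of the pumping arm, had a low value in Saline 2. Its levels were 6818, 1940 and 6353 CPM in Saline, 7611, 5130 and 5610 CPM in CPPE, and 6963, 5579 and 6351 CPM in nCPPE rats. Without Saline 2 the 8 rats spanned 5130 to 7611 CPM, with both ends in the CPPE group. Mt-Nd4, of the same arm, was at 140.0, 30.21 and 136.6 CPM in Saline, 150.5, 117.0 and 76.26 CPM in CPPE, and 146.3, 90.91 and 132.8 CPM in nCPPE rats. Saline 2 was again lowest, CPPE 3 was next, and CPPE 1 was highest. Mt-Nd3 was at 859.3, 626.4 and 702.8 CPM in Saline, 937.6, 635.5 and 460.6 CPM in CPPE, and 926.3, 715.9 and 872.8 CPM in nCPPE rats. Here the lowest rat was CPPE 3 and not Saline 2. Mean CPM of mt-Nd3 (± SD, n = 3 each) was 677.9 ± 241.3 in CPPE, 729.5 ± 118.7 in Saline and 838.3 ± 109.3 in nCPPE rats, and no step in this order exceeded the larger SD.

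The 3 members from cytochrome c oxidase ordered the rats alike at their upper end. Mt-Co1, the subunit that binds oxygen, was at 43620, 32610 and 42020 CPM in Saline, 49060, 34430 and 36920 CPM in CPPE, and 43280, 40660 and 40690 CPM in nCPPE rats. CPPE 1 was highest and Saline 2 lowest, and the nCPPE rats lay closer together than the rats of the other groups. Mt-Co2, which takes electrons from cytochrome c, was at 17230, 12520 and 15690 CPM in Saline, 18500, 13140 and 11980 CPM in CPPE, and 16850, 14160 and 15860 CPM in nCPPE rats. Its lowest value was in CPPE 3. Mt-Co3 was at 16370, 13270 and 15070 CPM in Saline, 17650, 13670 and 14010 CPM in CPPE, and 15900, 14400 and 14270 CPM in nCPPE rats. For mt-Co1, mt-Co2 and mt-Co3 alike, CPPE 1 was above and CPPE 2 and 3 were below all nCPPE rats.

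Mt-Atp6 was at 27250, 16080 and 25380 CPM in Saline, 30150, 22910 and 19660 CPM in CPPE, and 26450, 23160 and 23690 CPM in nCPPE rats. It had the same positions of the CPPE rats around the nCPPE rats as the oxidase members. Mt-Cytb was the steadiest member, at 15640, 14940 and 15860 CPM in Saline, 17940, 14380 and 14980 CPM in CPPE, and 16470, 14190 and 14170 CPM in nCPPE rats. In mt-Cytb Saline 2 lay inside the range of the other rats. The coefficient of variation of the share of all counts over 9 rats was 7.16% for mt-Cytb, 9.08% for mt-Co3 and 9.80% for mt-Nd1, and reached 20.9% for mt-Nd3, 28.1% for mt-Nd5 and 34.9% for mt-Nd4. Without Saline 2 it was 11.6% for mt-Nd5 and 20.5% for mt-Nd4, and 20.4% for mt-Nd3. Counting error was at most 0.841% for every member but mt-Nd4, so the spread between rats was larger than counting error for all 10.

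Most of the variance of the members lay within groups. Group membership held 0.337% (mt-Co3) to 21.5% (mt-Nd3) of the variance of their log2 CPM over the 9 rats, with a median of 7.39%, beside a median of 17.0% over all genes tested. With 3 rats a group, low shares also arise without group differences, so they are a description. The median SD of log2 CPM of the members was 0.245 over 9 rats and 0.171 without Saline 2 (all genes 0.296 and 0.144). Against the mean log2 CPM of the other 8 rats, all 10 members were higher in CPPE 1 (median 0.34), Saline 1 (0.24) and nCPPE 1 (0.19). In each of CPPE 2 and CPPE 3, 9 of 10 were lower, with medians of -0.13 and -0.12. CPPE 1 had the highest CPM of all rats for 9 members, all but mt-Nd2, which was highest in Saline 1. The median of all genes tested in CPPE 1 was 0.013 on the same scale. What the libraries numbered 1 have in common beside the number was not tested.

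**Figure D2:**
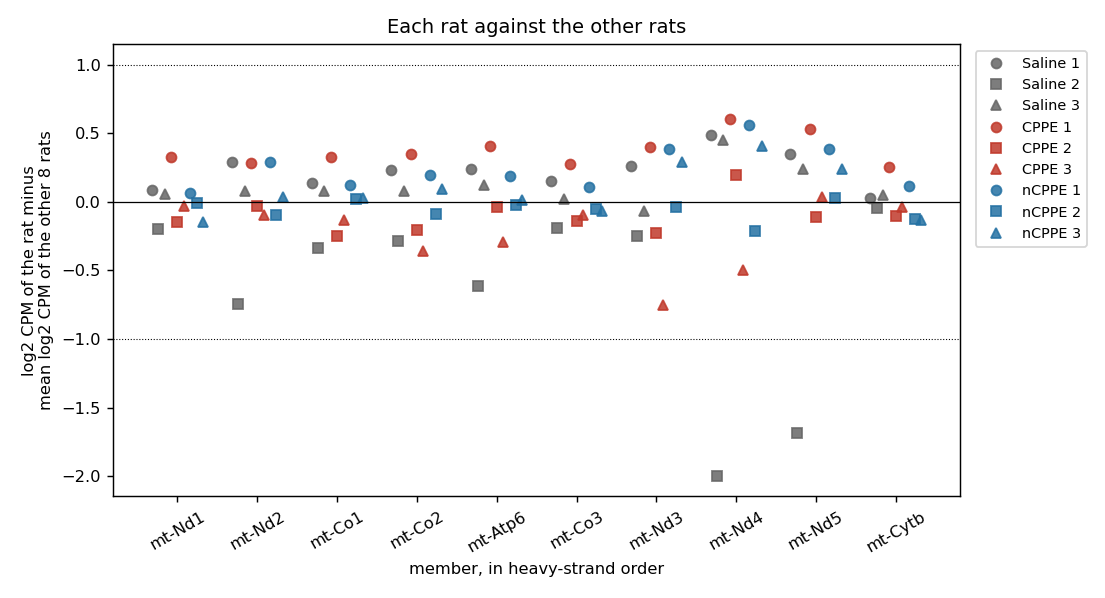
Difference in log2 CPM between a rat and the mean of the other 8 rats (vertical axis) for each of the 10 members (horizontal axis); each point is 1 rat, colour gives the group and shape the rat number, and dotted lines mark 2-fold. Saline 2 lies at -2.0 for mt-Nd4 and -1.69 for mt-Nd5 and near 0 for mt-Cytb, while CPPE 1 lies above 0 for all 10.

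All 45 pairs of members had a positive correlation of log2 CPM over the 9 rats. Pearson's r was 0.374 to 0.962 with a median of 0.769, and without Saline 2 it was 0.423 to 0.956 with a median of 0.847. These are descriptions, since the members of a rat share its libraries and their scaling. Correlation with the mean of all 10 was 0.589 for mt-Cytb and 0.988 for mt-Atp6, the lowest and the highest of the members over 9 rats. Without Saline 2 the lowest was mt-Nd1 (0.75, mt-Cytb 0.79) and the highest mt-Co2 (0.986, mt-Atp6 0.972).

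Saline 2 was below the mean of the other rats by an unequal amount along the members, and had the lowest CPM of all rats for 7 of them. Its log2 difference from the mean of the other 8 rats was -2.0 for mt-Nd4 and -1.69 for mt-Nd5. It was -0.75 for mt-Nd2 and -0.62 for mt-Atp6. The remaining members lay between -0.33 (mt-Co1) and -0.045 (mt-Cytb), and the median was -0.31, beside 0.0046 over all genes tested. Thus 2 of 10 members were over 2-fold lower in this rat, beside 19.5% of all genes tested. Mt-Nd5 and mt-Cytb are neighbours on the heavy strand with the light-strand gene mt-Nd6 between them, and mt-Nd5 was lowered more than every member but mt-Nd4, while mt-Cytb was lowered least. Cell type markers and RNA quality could not be read from these data, and their part in the low values of Saline 2 was not tested.

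As shares of the 10-member sum, Saline 2 lay outside the range of the other 8 rats for most members. Mt-Nd5 made up 1.74% of the sum in Saline 2 and 3.96% to 4.48% in the other rats. Mt-Nd4 made up 0.0272% in Saline 2 and 0.0592% to 0.0938% elsewhere. Mt-Nd2, at 8.93%, was also below the range of 10.7% to 12.0% in the others, and mt-Atp6, at 14.5%, was below 15.3% to 17.7%. In the opposite direction, mt-Cytb made up 13.4% in Saline 2 and 9.91% to 11.6% elsewhere. Mt-Co3 was at 11.9% beside 10.1% to 10.9%, and mt-Nd1 at 8.36% beside 6.78% to 8.00%. Saline 2 held the lowest or highest value for 8 of 10 members, and mt-Co1 and mt-Nd3 were the exceptions. Among the other 8 rats the makeup also varied, with a coefficient of variation of 15.5% for the share of mt-Nd3 and 16.0% for that of mt-Nd4. Since shares of a sum are tied together, a lower share of some members raises that of the others.

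The same contrast stood out in ratios of counts, which are compared here between rats and not between genes. The ratio of mt-Nd5 to mt-Cytb was 0.130 in Saline 2 and 0.357 to 0.448 in the other rats. That of mt-Nd1 to mt-Nd4 was 308 in Saline 2, 135 in CPPE 3, 115 in nCPPE 2 and 72.3 to 85.3 in the remaining 6 rats. By contrast, the ratio of mt-Nd4 to mt-Nd5 was 0.0156 in Saline 2, inside the range of 0.0136 to 0.0228 in the others. The counts of these neighbours were thus lowered together. Of the 9 rats, CPPE 3 had the lowest ratios of mt-Nd4 to mt-Nd5 (0.0136), of mt-Nd3 to mt-Co3 (0.0329, others 0.0465 to 0.0611) and of mt-Co2 to mt-Co1 (0.324, others 0.348 to 0.395). In shares of the sum CPPE 3 was at an extreme of the 9 rats for 2 members and nCPPE 3 for 5, being lowest in mt-Nd1 (6.78%) and mt-Co3 (10.1%) and highest in mt-Nd3 (0.616%), mt-Nd4 (0.0938%) and mt-Nd5 (4.48%).

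**Figure D3:**
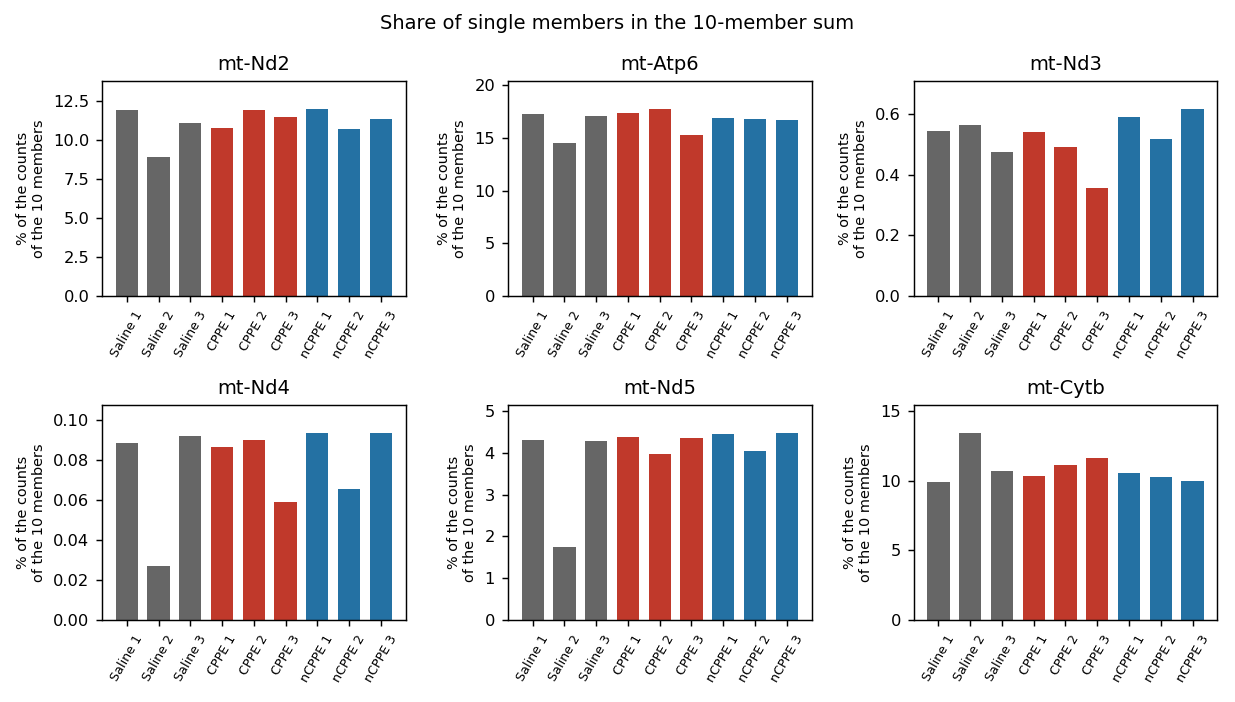
Share of 6 members in the summed counts of the 10 (%, vertical axes that start at 0), 1 bar per rat; grey is Saline, red CPPE and blue nCPPE. In Saline 2 the bars of mt-Nd5 (1.74%), mt-Nd4 (0.0272%), mt-Nd2 and mt-Atp6 are the lowest and that of mt-Cytb (13.4%) the highest, while mt-Nd3 is lowest in CPPE 3.

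CPPE against nCPPE compares rats that did and did not express the preference after cocaine. The number of injections and the last dose were the same, while the training dose is not given in the sources used here. For the members, 3 means were higher and 7 lower in CPPE, and 0 of 10 passed the test. The largest difference was that of mt-Nd3, with a log2 difference of -0.31 ± 0.25 (SE, 95% interval -0.88 to 0.27). Those of the other members were between -0.11 ± 0.51 (mt-Nd4) and 0.079 ± 0.16 (mt-Nd1). CPPE and nCPPE rats had 40130 ± 7826 and 41540 ± 1509 CPM of mt-Co1 (SD, n = 3 each). For mt-Atp6 these means were 24240 ± 5369 and 24430 ± 1765 CPM. Means of the groups were thus close while the CPPE rats spread more widely.

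In edgeR's quasi-likelihood test for CPPE against nCPPE, all members had an adjusted p of 1.0 (Benjamini-Hochberg over 15555 genes), beside 0% of all genes called. By edgeR an unadjusted p below 0.05 was found for 0 members and 84 genes, the smallest among members being that of mt-Nd3 (p = 0.257). Saline 2 is in neither group but enters the shared spread. Without it edgeR gave 0 members and 556 of 15750 genes an unadjusted p below 0.05. DESeq2 called 0 members and 2 genes. The 2 groups overlapped in all 10 members, while they did not overlap in 8.49% of genes tested. The median log2 difference was -0.031 over the members and -0.0011 over all genes. A 2-fold difference lay outside the 95% interval for 9 members, all but mt-Nd4 (-1.26 to 1.04), and for 76.8% of all genes. In the fit without Saline 2 it lay outside the interval for 10 members, with mt-Nd4 at -0.63 to 0.42.

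The direction of this comparison turned with single rats for every member but mt-Nd3. Mt-Nd3 was lower in CPPE whichever rat was left out (log2 difference -0.61 to -0.092). Without CPPE 1 all 10 members were lower in CPPE than in nCPPE rats, with a median of -0.21 and with -0.61 for mt-Nd3, the 1 member with an unadjusted p below 0.05 in that edgeR fit. Without CPPE 3, 9 of 10 were higher in CPPE, and without CPPE 2 or without nCPPE 1, 7 of 10 were. The smallest adjusted p of a member by edgeR over these 4 fits was 1.0. CPPE 1 lay above every nCPPE rat for 9 members, and for 5 of these (mt-Co1, mt-Co2, mt-Atp6, mt-Co3 and mt-Nd3) CPPE 2 and CPPE 3 lay below every nCPPE rat. The SD of log2 CPM was larger in CPPE than in nCPPE rats for 10 of 10 members, beside 47.4% of all genes tested. With 3 rats a group and members that go together in each rat, this is a description of these animals.

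CPPE against Saline compares rats that expressed the preference after cocaine, the last injection before the test included, with rats given serum. Effects of the last injection and of the earlier ones cannot be told apart here. Of the members, 8 had a higher mean in CPPE and 2, mt-Co2 and mt-Nd3, a lower one, and 0 of 10 passed the test. The largest log2 difference was that of mt-Nd5, 0.28 ± 0.41 (SE, 95% interval -0.64 to 1.20), from means of 6117 ± 1316 (CPPE) and 5037 ± 2692 CPM (Saline, SD, n = 3 each). That of mt-Nd4 was 0.16 ± 0.51 (-0.99 to 1.32). The others lay between -0.11 (mt-Nd3) and 0.11 (mt-Nd2).

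The smallest adjusted p of a member for CPPE against Saline was 0.885 by edgeR, with 0% of genes called. An unadjusted edgeR p below 0.05 was found for 0 members and 139 genes, and without Saline 2 for 0 members and 929 of 15750 genes. DESeq2 called 0 members and 0 genes. No member separated the groups, beside 5.72% of all genes. The median log2 difference was 0.047 over the members and -0.012 over all genes. The direction rested on Saline 2. Without that rat 1 of 10 members was higher in CPPE, 7 members changed sign, the median was -0.11, and mt-Nd5 and mt-Nd4 stood at -0.11 and -0.27 (smallest edgeR adjusted p of a member 0.872). With all rats, a 2-fold difference was outside the 95% interval for 8 members and for 66.6% of all genes. Without Saline 2 it was outside the interval for 10 members. Without CPPE 1, 2 of 10 members were higher in CPPE.

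The comparison of nCPPE with Saline rats does the same for rats that did not express the preference, and uses the same Saline rats. Here 7 members had a higher mean in nCPPE (9 on library totals without scaling, where mt-Nd1 and mt-Co3 were higher too), and 0 of 10 passed the test. Mt-Nd1, mt-Co3 and mt-Cytb had a lower mean. Mt-Nd5 had the largest log2 difference, 0.32 ± 0.41 (SE, 95% interval -0.60 to 1.24), from 6298 ± 693.5 CPM in nCPPE rats (SD, n = 3). Mt-Nd4 followed with 0.27 ± 0.51 and mt-Nd3 with 0.20 ± 0.25. The remaining members lay between -0.051 (mt-Cytb) and 0.13 (mt-Nd2).

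For nCPPE against Saline the smallest adjusted p of a member was 0.937 by edgeR, and 0% of genes were called. The unadjusted edgeR p was below 0.05 for 0 members and 179 genes, and without Saline 2 for 0 members and 964 of 15750 genes. DESeq2 called 0 members and 2 genes. No member separated the groups, beside 4.02% of all genes. The median log2 difference was 0.084 over the members and -0.0072 over all genes. Without Saline 2, 1 of 10 members was higher in nCPPE, 6 changed sign and the median was -0.078, with mt-Nd5 at -0.064 and mt-Nd4 at -0.16. Mt-Nd3 was the member that was then still higher, at 0.10, and the smallest adjusted p of a member by edgeR was 0.922.

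Both cocaine groups against Saline, 6 rats against 3, asks about cocaine whatever the preference, from the values already given. Of the members, 8 had a higher mean in cocaine rats, and mt-Co2 and mt-Cytb had a lower one, by -0.0073 and -0.012 on the log2 scale (all 10 were higher on library totals without scaling). Mt-Nd5 was at 6207 ± 945.9 CPM (SD, n = 6) against 5037 ± 2692 CPM (SD, n = 3), a log2 difference of 0.30 ± 0.36 (SE, 95% interval -0.51 to 1.11). Mt-Nd4 differed by 0.22 ± 0.44, mt-Nd2 by 0.12 ± 0.21, and the other members by at most 0.087 (mt-Atp6). The spread among Saline rats was larger than these differences.

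For cocaine against Saline 0 of 10 members passed the edgeR test, with a smallest adjusted p of 0.830, beside 0% of genes called. Unadjusted, edgeR gave 0 members and 193 genes a p below 0.05, and without Saline 2 0 members and 1055 of 15750 genes. DESeq2 called 0 members and 1 gene. No member separated the groups, beside 1.03% of all genes. The median log2 difference was 0.049 over the members and -0.011 over all genes. Without Saline 2 all 10 members were lower in cocaine rats, by -0.22 (mt-Nd4) to -0.037 (mt-Cytb), with a median of -0.077, and the smallest adjusted p of a member by edgeR was 0.863. Without Saline 1, or without Saline 3, all 10 were higher, and without CPPE 1, 3 of 10 were.

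**Figure D4:**
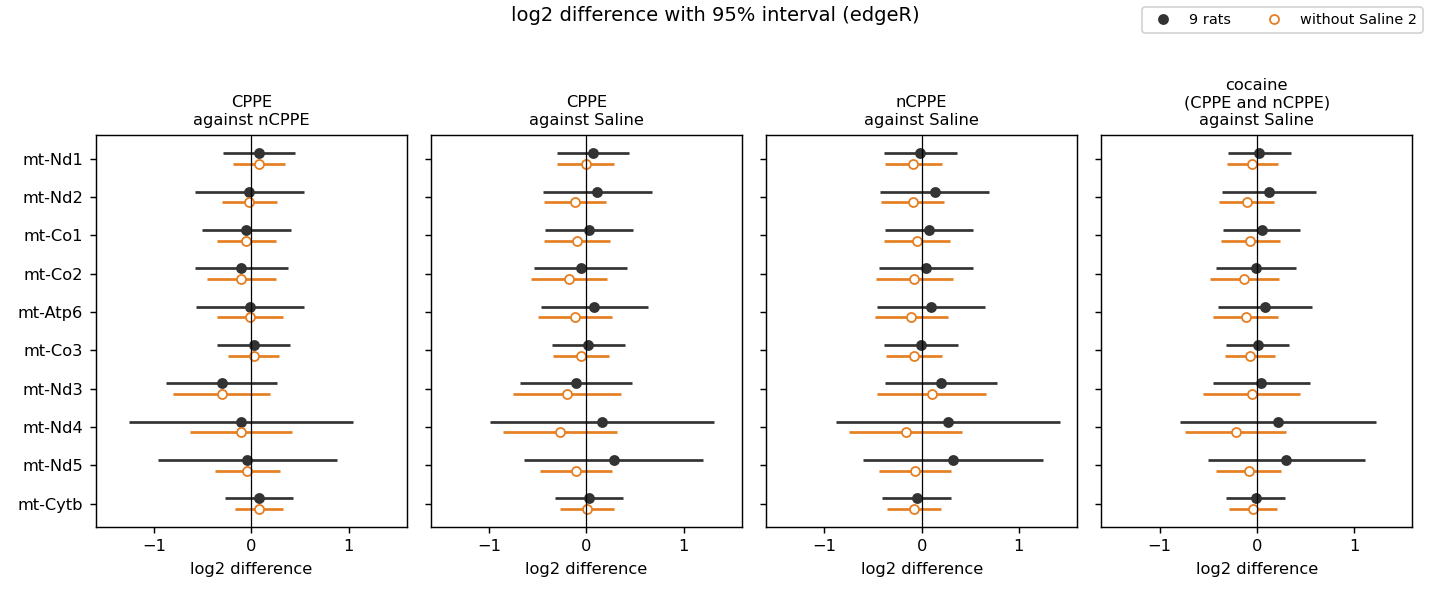
Log2 difference of each member in the 4 comparisons (horizontal axes), points with 95% intervals from edgeR; black is the fit with 9 rats and orange the fit without Saline 2. Every interval spans 0, with all rats the widest are those of mt-Nd4 and mt-Nd5, and the points against Saline lie mostly above 0 with all rats and mostly below 0 without Saline 2.

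Outside the set, the genes whose log2 CPM over the 9 rats was most like the mean of the members were ENSRNOG00000001652 (r = 0.958) and ENSRNOG00000061937 (r = 0.957), among 13757 genes that averaged 1 CPM or more. Both had low levels, 1.43 to 3.01 CPM and 0.753 to 1.45 CPM. Without Saline 2 their r was 0.891 and 0.946, at ranks 14 and 5. In those 8 rats ENSRNOG00000029055 (r = 0.969) and ENSRNOG00000031053 (r = 0.950) came first. Over 9 rats the former had an r of 0.476 and the latter of 0.939. ENSRNOG00000031053 had far more counts than the others, with a mean of 638 CPM and a range of 136 to 858 CPM. No names are given for these genes, so whether any of them is itself encoded in mitochondrial DNA could not be checked. The correlations are descriptions over few rats.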

How the data were processed

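Polyadenylated RNA was prepared from 300 ng of total RNA with a stranded kit (TruSeq Stranded mRNA), per the labels' protocols. The submitters' processing notes list HTSeq 0.5.3, STAR and bcl2fastq 2.18.0.12. For the STAR version, genome build, annotation and strand setting, a value is not given in the sources used here. Raw values come from the authors, who deposited unnormalized whole-number counts of reads for each Ensembl gene, in 36 files. Over all genes the 4 technical replicates of a rat differed by no more than sampling noise (chi-square per degree of freedom 1.00 to 1.02), and they were summed. For the members alone, 11 of 90 such tests (12.2%) had p below 0.05. With 3 rats a group, p-values set a difference between group means against the spread between these rats.

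The test was that of edgeR 4.0.16 (R 4.3.3, filterByExpr, TMM, quasi-likelihood F-test, group as the sole factor, all 9 rats). Genes were called at a Benjamini-Hochberg adjusted p below 0.05. The procedure was tried on simulated counts with known changes. These had the same variability for every gene and no rat like Saline 2, so they do not show how the test performs on these data. CPM and log2 CPM (prior count 2) were computed from the counts. All 10 members are named in every comparison, with the 2 genes most correlated with their mean. Alternatives were DESeq2 1.42.0, other scalings, no filter, the compared groups alone, a replicate block and leaving out each rat. Replicate numbers were not taken as pairs of rats in the main fit. The reference table (assembly GRCr8) paired 0 identifiers with a symbol, so 14 gene lists fixed by symbol (nuclear-encoded subunits, mitochondrial expression, cell type markers) were not used here. The members and lists were chosen with earlier results of these data known.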

Additional observations from a re-analysis of the deposited data

How the results depend on the processing

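No member was called in any comparison under any alternative run, and edgeR called 0 genes under each. DESeq2 called 2 genes for CPPE against nCPPE, 2 for nCPPE against Saline and 1 for cocaine against Saline. Of 270 log2 differences of members under settings that keep all rats, 6 changed sign, and the smallest edgeR or DESeq2 adjusted p was 0.788. On library totals without scaling, mt-Nd1 (0.017) and mt-Co3 (0.025) became higher in nCPPE than in Saline rats, and mt-Co2 (0.015) and mt-Cytb (0.015) higher in cocaine than in Saline rats. Without the filter on low counts mt-Co3 (0.0071) became higher in nCPPE and mt-Co2 (0.0026) in cocaine rats than in Saline rats. The cause was not tested, and all 6 values are small beside their standard errors.

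With the replicate number as a replicate block, edgeR called 0 genes and 0 members in all 4 comparisons, and 64 genes had an unadjusted p below 0.05 for CPPE against nCPPE. Against Saline these were 123 for CPPE, 130 for nCPPE and 162 for cocaine rats. The smallest adjusted p of a member under the block was 1.0, 0.849, 0.903 and 0.788 in the same order. Over all genes tested, rats with the same number were not consistently alike. Of 9 such pairs, 2 correlated above 0.1 (r -0.447 to 0.257), and 2 of 9 rats correlated best with a rat of their own number. Every member was above the mean of the other rats in Saline 1, CPPE 1 and nCPPE 1. Whether rats with the same number shared more than that number was not tested.

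Leaving out 1 rat at a time gave 360 log2 differences, 76 of which changed sign, in 37 of 40 results, with a smallest edgeR adjusted p of 0.523. The sign held for mt-Nd3 in CPPE against nCPPE (-0.61 to -0.092). It also held in nCPPE against Saline for mt-Nd3 (0.10 to 0.34) and mt-Cytb (-0.13 to -0.014). The ranges that follow are those of the 37 results that changed sign. For CPPE against nCPPE the log2 differences ranged over mt-Nd1 -0.055 to 0.16, mt-Nd2 -0.13 to 0.081, mt-Nd4 -0.35 to 0.12, mt-Nd5 -0.23 to 0.070, mt-Cytb -0.026 to 0.15, mt-Co1 -0.22 to 0.049, mt-Co2 -0.31 to 0.018, mt-Co3 -0.10 to 0.091 and mt-Atp6 -0.20 to 0.12. For CPPE against Saline the log2 differences ranged over mt-Nd1 -0.062 to 0.15, mt-Nd2 -0.11 to 0.31, mt-Nd3 -0.41 to 0.11, mt-Nd4 -0.27 to 0.46, mt-Nd5 -0.11 to 0.56, mt-Cytb -0.072 to 0.088, mt-Co1 -0.14 to 0.12, mt-Co2 -0.27 to 0.062, mt-Co3 -0.10 to 0.10 and mt-Atp6 -0.12 to 0.23. For nCPPE against Saline the log2 differences ranged over mt-Nd1 -0.086 to 0.042, mt-Nd2 -0.093 to 0.33, mt-Nd4 -0.16 to 0.57, mt-Nd5 -0.064 to 0.61, mt-Co1 -0.043 to 0.16, mt-Co2 -0.075 to 0.15, mt-Co3 -0.080 to 0.076 and mt-Atp6 -0.11 to 0.24. For cocaine against Saline the log2 differences ranged over mt-Nd1 -0.046 to 0.082, mt-Nd2 -0.10 to 0.32, mt-Nd3 -0.10 to 0.19, mt-Nd4 -0.22 to 0.51, mt-Nd5 -0.085 to 0.59, mt-Cytb -0.058 to 0.018, mt-Co1 -0.068 to 0.14, mt-Co2 -0.13 to 0.10, mt-Co3 -0.069 to 0.088 and mt-Atp6 -0.11 to 0.24.

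The precision is limited by 3 rats a group and by Saline 2, which widened the shared spread, and not by depth, since counting error was at most 3.44% for a member. Levels are relative to all other polyadenylated RNA of a library.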

Other observations

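Technical replicates of a rat were also compared for each member alone. Of 90 chi-square tests (10 members in 9 rats), 11 (12.2%) had p below 0.05, while over all genes 4.91% to 5.38% did so in each rat. The strongest was mt-Co1 in CPPE 1, with a chi-square per degree of freedom of 5.69 and replicates within 0.524% of their mean share. Members have high counts, at which this test can detect small deviations. The summed share of the members was highest, or tied for highest, in technical replicate d of every rat. The cause of the higher share of low p-values was not tested. The largest deviation of a technical replicate was 6.96%, in mt-Nd4, and 1.77% among members other than mt-Nd4 and mt-Nd3. Both are far below the spread between rats of the same members.

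Among the 6 cocaine rats, 11 measures (the CPM of each member and their summed share) were checked for a single distant rat, and none passed Dixon's critical value. The widest gap was that of CPPE 1 in mt-Nd1, which took 0.593 of the whole range.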
